A study of Homo sapiens with 12 samples.

Results

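Ephrins and their Eph receptors were described over 12 arrays of NCI-H1299, a line long grown from a human non-small cell lung carcinoma. The genes were 10 listed members of the family, the ligands EFNB1, EFNB2, EFNB3, EFNA1, EFNA4 and EFNA5 and the receptors EPHA2, EPHA4, EPHB2 and EPHB4. Of these, 9 were read by probe sets that carry their symbol alone, 19 probe sets in all, among 19775 genes so read on the array. EPHB2 was not analysed here. The list was chosen by the measured levels of EFNB2, high in every group but parental culture, so those same values are given for it as a description, with no test. The rule has no threshold.

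The 4 groups held 3 samples each, labelled as biological replicates. Parental culture was NCI-H1299 grown in serum-containing medium. Spheroid culture was made by moving growing monolayers to a stem cell medium for 7 to 10 days and plating the floating cells in ultra-low-attachment flasks, and these are the cancer stem cells of the series design. Parental xenograft and spheroid xenograft were tumours grown from the parental cells and from the spheroid cells. All groups thus come from 1 line, and the sources used here do not give the host, the tumour site and age or the number of animals. The p-values therefore cover the spread of these samples only, and some of that spread may be technical. The questions are what spheroid growth changes, before and after grafting, and what growth as a tumour changes in either kind of cell.

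Ephrins are ligands held on the cell surface, so they meet their receptors on a neighbouring cell. A ephrins sit in the membrane by a lipid anchor, while B ephrins cross it and carry a cytoplasmic tail. Eph receptors are receptor tyrosine kinases, A receptors mostly binding A ephrins and B receptors B ephrins, and signals run both forward into the receptor's cell and in reverse into the cell that bears the ephrin. The pair EFNB2 and EPHB4 is known from blood vessels, where EFNB2 marks arteries and EPHB4 veins, and EPHA2 is a receptor often found at high levels in lung carcinoma lines.

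The 250 bases before the annotated start of a gene are shown for EFNB2, whose level differed most between groups among the members, for EFNB1, a ligand of the same class whose level moved little, and for EPHA7, the family's called gene among those outside the list. The sequences are from RefSeq, build GRCh38.p14, written 5′ to 3′ on the gene's own strand and ending at the base before the start. Capitals mark every match, on either strand, to 1 of 4 short motifs. These are ACGTG, 1 form of the core of the hypoxia response element, and TGGGAA, the core bound by the Notch partner RBPJ. The others are GGGCGG, the GC box, and TATAAA, the TATA box. The GCGTG form of the hypoxia core was not searched and is left in small letters. It occurs, on 1 strand or the other, in the EFNB2 and EFNB1 windows. No match overlaps another in these windows. The EFNB2 window is chr13:106535663-106535912 (minus strand), the EFNB1 window chrX:68828771-68829020 (plus strand) and the EPHA7 window chr6:93419560-93419809 (minus strand).
EFNB2: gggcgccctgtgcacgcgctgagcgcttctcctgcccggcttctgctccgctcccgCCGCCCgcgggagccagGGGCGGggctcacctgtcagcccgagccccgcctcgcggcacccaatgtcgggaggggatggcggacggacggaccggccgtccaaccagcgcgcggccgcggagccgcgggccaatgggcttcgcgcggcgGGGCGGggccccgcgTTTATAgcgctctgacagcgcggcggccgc
EFNB1: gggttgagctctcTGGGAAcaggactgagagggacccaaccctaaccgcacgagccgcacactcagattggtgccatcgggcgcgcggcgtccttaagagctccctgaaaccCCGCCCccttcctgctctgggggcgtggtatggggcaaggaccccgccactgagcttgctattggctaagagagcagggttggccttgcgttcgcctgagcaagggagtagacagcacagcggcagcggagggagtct
EPHA7: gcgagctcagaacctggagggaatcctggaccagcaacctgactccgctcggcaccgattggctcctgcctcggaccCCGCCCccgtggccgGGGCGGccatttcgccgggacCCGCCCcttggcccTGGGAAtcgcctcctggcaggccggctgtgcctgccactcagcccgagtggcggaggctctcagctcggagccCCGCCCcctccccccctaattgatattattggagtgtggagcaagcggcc

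The EFNB2 window is rich in G and C (78.4% of its bases) and holds 3 GC boxes, 40 to 189 bases before the start. It also holds 1 match to the TATA box 25 bases before the start, on the opposite strand (TTTATA as written). The EFNB1 window (63.6% G and C) holds 1 GC box and 1 RBPJ core, and the EPHA7 window (69.6% G and C) 4 GC boxes and 1 RBPJ core. Of the 35116 windows of the same length in the table, 42.6% held a GC box, 20.8% an RBPJ core, 18.5% ACGTG and 10.7% a TATA box, on either strand. A match is a description of letters, and the absence of ACGTG here says only that those letters are not in these windows. A window was given for 9 of the 10 members and for 20 of the 22 genes of the family.

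EFNB2, the B ephrin of arteries, was at its lowest in parental culture, at 7.73, 8.20 and 7.24 on the log2 scale of the arrays (probe set 202668_at). It read 9.08, 10.87 and 11.13 in spheroid culture, 11.50, 10.93 and 11.04 in parental xenografts, and 10.93, 11.47 and 12.07 in spheroid xenografts. All 3 parental cultures lay below each of the other 9 samples, and spheroid culture replicate 1 lay below the other 8 of those. The group means were 7.72 ± 0.48 for parental and 10.36 ± 1.11 for spheroid culture, and 11.16 ± 0.30 for parental and 11.49 ± 0.57 for spheroid xenografts (SD, n = 3). In that order of groups the first step separates the samples, whereas spheroid culture overlaps parental xenografts and these overlap spheroid xenografts.

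The mean of EFNB2 was 2.64 higher in spheroid than in parental culture (SE 0.47, a fold of 6.22). In parental cells it was 3.43 higher in xenografts than in culture (SE 0.47, a fold of 10.8). In spheroid cells the xenografts were 1.13 above culture (SE 0.47), a distance that 1 sample sets in part, since it was 0.49 without spheroid culture replicate 1. Spheroid and parental xenografts were 0.33 apart (SE 0.47), so the spheroid to parental difference was 2.64 in culture and 0.33 in tumours, an interaction of -2.30 (SE 0.67). The first pair of differences share the parental cultures. The SEs use 1 spread per gene shared by all 4 groups, so they do not reflect the wider spread of spheroid culture (SD 1.11).

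A further EFNB2 probe set, 202669_s_at, followed the same course, at 7.26, 6.76 and 5.88 in parental culture and 8.24, 9.16 and 9.36 in spheroid culture. In parental xenografts it read 9.86, 9.61 and 9.45, and in spheroid xenografts 9.59, 10.11 and 11.02. Across the 12 arrays the values of the 2 probe sets had a Pearson r of 0.975. On this probe set the spheroid xenografts all lay above the spheroid cultures, by 1.32 in the mean (SE 0.42), whereas on 202668_at they overlapped.

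**Figure D1:**
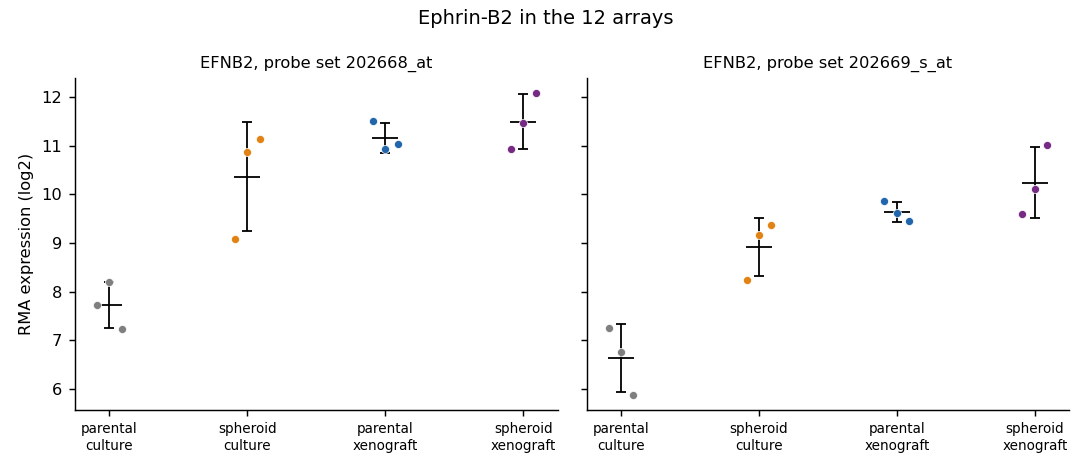
Log2 expression of EFNB2 in each of the 12 samples, by group, for its 2 probe sets; points are samples and the bars the group mean and SD (n = 3). On both probe sets the 3 parental cultures, at 7.24 to 8.20 on 202668_at, lie below every other sample, and spheroid culture replicate 1 at 9.08 is the lowest of the rest.

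The parental cultures were also the least uniform samples: the median gene had an SD of 0.316 there, while it was 0.156 to 0.199 in the other groups. Quality probes set 2 of them apart. The 5′ probe set of 18S ribosomal RNA gave 6.96 on replicate 1 and 10.50 on replicate 2, and 12.21 to 13.34 on all others. The 3′ signal of GAPDH was 0.49 above its 5′ signal on replicate 1 and 0.019 to 0.13 above it on the rest. With both of these arrays left out, EFNB2 was 3.12 higher in spheroid culture and 3.92 higher in parental xenografts than in the remaining parental culture. Array medians ran from 5.85 to 6.03.

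Endothelial cells express EFNB2, and a tumour can hold host vessels. The probes of the array are for human transcripts, so transcripts of a host of another species may be read poorly or not at all. This limit holds for every marker of other cells given here. Between parental xenografts and culture, limma called 0 of 14 endothelial markers (2 at an unadjusted p under 0.05), against 3.47% of all genes. Between spheroid xenografts and culture it called 0 (0 unadjusted), against 0.0202% of all genes. Their summed level was 77.5 to 82.4 in parental culture and 80.6 to 83.2 in spheroid culture, and 78.0 to 82.2 in parental and 79.6 to 82.7 in spheroid xenografts. Of the 14, 9 lay at or above the lower quartile of the array (4.63 to 4.80) on all 12 arrays, cultures included. Among them PECAM1, an adhesion molecule of endothelial cells, had means of 7.00 in parental and 7.10 in spheroid xenografts. In parental and spheroid culture its means were 6.92 and 7.15. TEK, the angiopoietin receptor, had 6.69 and 6.78 in these xenografts, and 6.84 and 7.06 in these cultures. Below the quartile on every array of a group were 4 markers in parental xenografts (KDR, TIE1, CDH5 and ERG), 3 in spheroid xenografts (KDR, TIE1 and CDH5) and 2 in each culture (KDR and TIE1). The part of endothelial cells in the EFNB2 levels was not tested. The 1 endothelial marker called was ENG, a coreceptor of the TGF-beta family, which rose by 0.70 from parental to spheroid culture (SE 0.16, limma adjusted p = 0.0464). It was 1 of 14 in that comparison, against 2.46% of all genes. That call was lost in 17 of 24 alternatives, with adjusted p of 0.0515 to 0.209 when any 1 array other than replicate 1 of parental culture or of parental xenografts was left out. In bulk samples, fewer cells of a type and less RNA per cell cannot be told apart.

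The other B ephrins moved far less. EFNB1, a transmembrane ligand with a role in the patterning of skull and face, read 6.45, 6.13 and 6.82 in parental culture and 6.51, 6.34 and 6.42 in spheroid culture. It read 6.38, 6.62 and 6.01 in parental xenografts and 6.48, 6.05 and 6.32 in spheroid xenografts. All groups overlapped, and its differences ran from -0.14 to -0.05 in the 4 comparisons of groups. EFNB3, a ligand of the neural midline, read 6.37, 5.85 and 6.53 in parental culture and 6.56, 6.46 and 6.32 in spheroid culture. In parental xenografts it read 6.38, 6.41 and 6.22, and in spheroid xenografts 6.37, 6.60 and 6.19. These groups overlapped as well, with differences from -0.06 to 0.19, and a weaker EFNB3 probe set, 205031_at, stayed between 5.80 and 6.43. The suffix _x_at of the brighter EFNB3 probe set, 210883_x_at, marks probes that may match other transcripts too.

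Among the A ephrins, EFNA1 and EFNA4 were lower in the 3 parental cultures than in every spheroid culture and every parental xenograft, by amounts that did not pass the test over all genes. EFNA1, the main ligand of EPHA2, read 6.85, 6.82 and 6.65 in parental culture and 7.56, 7.12 and 7.02 in spheroid culture. It read 7.37, 7.52 and 7.10 in parental xenografts and 7.02, 7.41 and 7.78 in spheroid xenografts. Its difference was 0.46 between spheroid and parental culture (SE 0.21, limma adjusted p = 0.343) and 0.56 between parental xenografts and culture (SE 0.21, adjusted p = 0.211). Between xenografts, and between spheroid xenografts and spheroid culture, EFNA1 overlapped, with differences of 0.07 and 0.17.

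EFNA4, another lipid-anchored ligand, read 5.69, 5.74 and 5.82 in parental culture and 6.07, 6.24 and 6.19 in spheroid culture. In parental xenografts it read 5.98, 6.16 and 6.53 and in spheroid xenografts 6.11, 6.20 and 5.94. It was thus lowest in parental culture, by 0.42 against spheroid culture (SE 0.15, limma adjusted p = 0.223) and by 0.47 against parental xenografts (SE 0.15, adjusted p = 0.139). Between the 2 kinds of xenograft and between spheroid xenografts and culture it overlapped, with differences of -0.14 and -0.08. Its interaction was -0.55 (limma adjusted p = 0.545). Over all 19775 genes, the groups did not overlap for 13.8% in the comparison of spheroid with parental culture and for 13.6% in that of parental xenografts with culture, in either direction. The 2 of 8 members that did not overlap in the first (EFNA1, EFNA4) and the 3 of 8 in the second (these and EPHA2) are read against those shares.

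EFNA5, a repellent ligand of growing axons, was read by 4 probe sets that differed among themselves, with pairwise r from -0.24 to 0.81 over the 12 arrays. The brightest, 233814_at, which stands for the gene, read 9.26, 8.62 and 7.99 in parental and 8.63, 8.66 and 8.75 in spheroid culture. It read 8.88, 8.91 and 9.42 in parental and 8.80, 9.31 and 9.16 in spheroid xenografts. Its parental cultures span nearly all the other samples, and the difference of parental xenografts from culture was 0.45 (SE 0.27, limma adjusted p = 0.558). Spheroid xenografts all lay above spheroid cultures on it, by 0.41 (SE 0.27, adjusted p = 0.842). Over all genes 18.7% did not overlap in that comparison, and 16.5% between spheroid and parental xenografts, where 0 of the 8 members was free of overlap.

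Probe set 227955_s_at of EFNA5 read 7.34, 7.67 and 7.53 in parental culture and 7.44, 8.27 and 8.18 in spheroid culture. It was higher in the tumours, at 8.47, 8.56 and 8.84 in parental xenografts and 8.47, 8.82 and 9.02 in spheroid xenografts. From parental culture to parental xenografts it rose by 1.11 (SE 0.22, limma adjusted p = 0.0277 over 54613 probe sets). In spheroid cells all xenografts lay above all cultures too, by 0.80, without passing the test (SE 0.22, adjusted p = 0.235). Probe set 214036_at ran in the same direction with a smaller difference in parental cells (0.40, SE 0.13, adjusted p = 0.167), and 207301_at stayed between 5.02 and 5.75.

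The call on 227955_s_at was the 1 call among the members' probe sets, and it was close to the threshold. Its adjusted p ran from 0.0064 to 0.264 over 23 alternatives. It was 0.0641 without parental culture replicate 1 and 0.0847 without replicate 3. Without parental xenograft replicates 1, 2 and 3 in turn it was 0.0596, 0.0817 and 0.0975, and without spheroid xenograft replicate 2 it was 0.0514.

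Of the A receptors in the list, EPHA2, the receptor of EFNA1 in epithelial cells, read 9.63, 10.18 and 9.63 in parental culture and 9.27, 9.71 and 9.69 in spheroid culture. It read 9.40, 9.51 and 9.61 in parental xenografts and 9.49, 9.60 and 9.80 in spheroid xenografts. The parental xenografts all lay below the parental cultures, by a margin of hundredths at the nearest samples, and the mean difference was -0.30 (SE 0.18, limma adjusted p = 0.559). In culture the spheroid minus parental difference was -0.25 (SE 0.18, adjusted p = 0.636).

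EPHA4, a receptor that binds ephrins of both classes, read 6.55, 6.14 and 6.87 in parental culture and 7.12, 6.52 and 6.24 in spheroid culture on probe set 206114_at. It read 6.58, 6.40 and 6.08 in parental xenografts and 6.40, 6.68 and 6.12 in spheroid xenografts, and all groups overlapped, with differences from -0.23 to 0.11. Its 4 other probe sets read 3.80 to 5.18, near or under the lower quartile of the arrays.

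EPHB4, the B receptor whose chief ligand is EFNB2, read 8.44, 8.44 and 8.52 in parental culture and 8.51, 8.46 and 8.32 in spheroid culture. In parental xenografts it read 8.50, 9.29 and 8.51, and in spheroid xenografts 8.39, 8.41 and 8.78. Apart from parental xenograft replicate 2 the samples stayed within 8.32 to 8.78, and the differences ran from -0.24 to 0.30 with every pair of groups overlapping. Probe set 216680_s_at of EPHB4 read 7.66 to 8.54. In the comparisons in which EFNB2 lay far apart, EPHB4 differed by -0.04 (cultures, limma adjusted p = 0.961) and 0.30 (parental cells, adjusted p = 0.640), neither of them called.

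**Figure D2:**
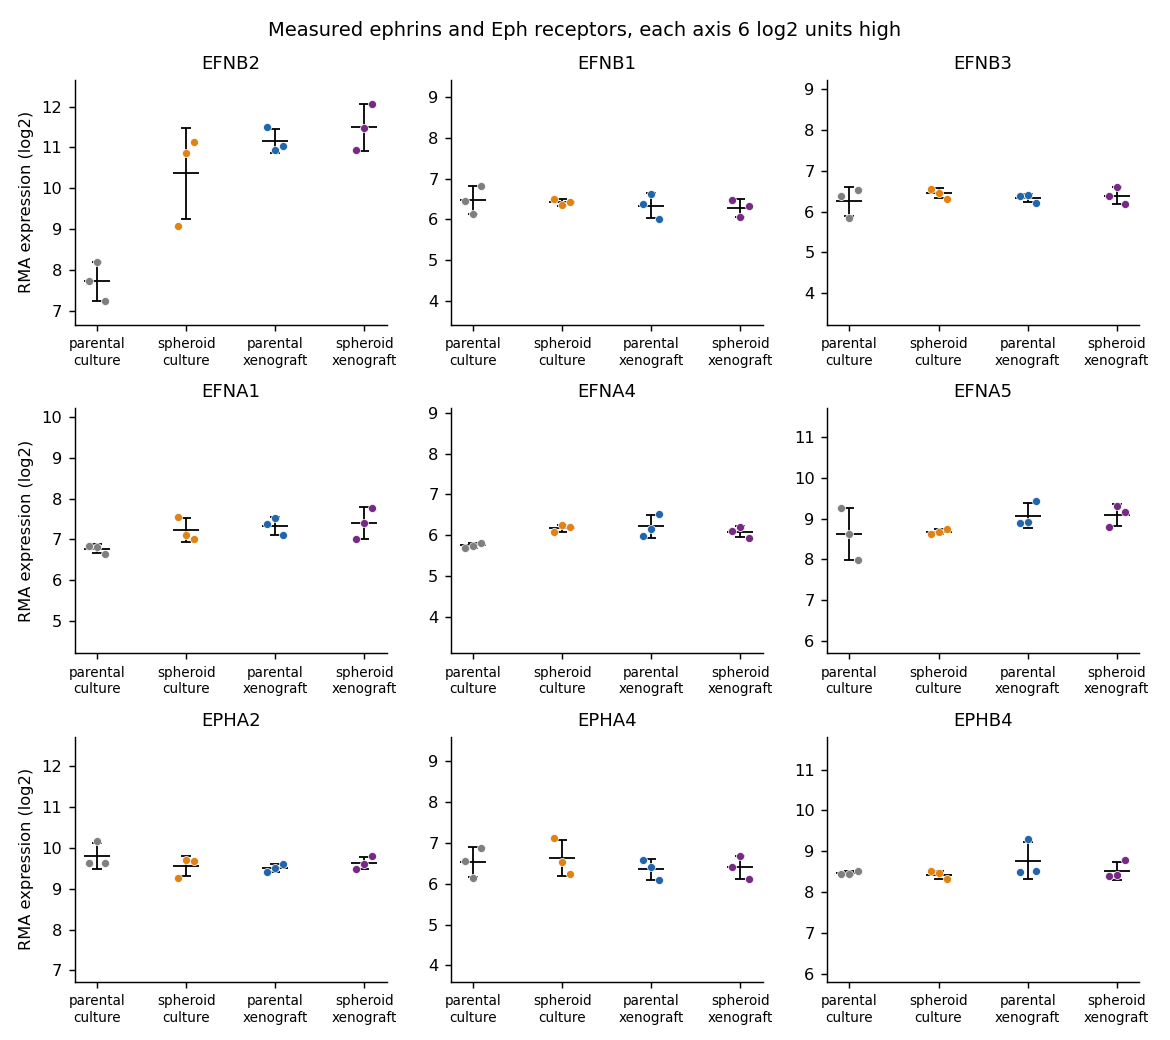
Log2 expression of the 9 measured members in each of the 12 samples by group, with the group mean and SD (n = 3); each panel has its own axis, all of the same height. The EFNB2 panel spans 7.24 to 12.07, while no other member's group means differ by more than 0.56 in any of the 4 comparisons described.

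For the 8 measured members other than EFNB2, limma called 0 of 8 in each comparison of groups and in the interaction. The background was 2.46% of all genes called between spheroid and parental culture, 0.233% between spheroid and parental xenografts, 3.47% between parental xenografts and culture, 0.0202% between spheroid xenografts and culture, and 0.137% in the interaction. At an unadjusted p under 0.05 the members numbered 2, 0, 2, 0 and 1 in that order. Over the 54613 probe sets the shares called were 1.23%, 0.0897%, 2.34%, 0.253% and 0.0732%, and the members' probe sets other than those of EFNB2 gave the 1 call of EFNA5 in parental cells. At this precision (a median SE of 0.20 for a difference of groups) a small change could have been missed.

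In culture the differences of the 8 members ran from -0.25 (EPHA2) to 0.46 (EFNA1), with 95% intervals that lay between -0.68 and 0.94. In parental cells they ran from -0.30 (EPHA2) to 0.56 (EFNA1), within -0.75 and 1.08. Between xenografts they ran from -0.24 (EPHB4) to 0.12 (EPHA2), within -0.71 and 0.65, and in spheroid cells from -0.23 (EPHA4) to 0.41 (EFNA5), within -0.81 and 1.04. The medians were 0.085 in culture, 0.19 in parental cells, 0.033 between xenografts and 0.0077 in spheroid cells. Over all genes the medians were 0.070, -0.0091, 0.019 and -0.047. In the interaction the median of the 8 members was -0.11, against -0.044 over all genes. The 95% intervals take the 8 residual degrees of freedom, so they are wider than limma's own test implies. EFNA1 in culture had an unadjusted limma p of 0.0462, while its interval ran from -0.017 to 0.94.

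**Figure D3:**
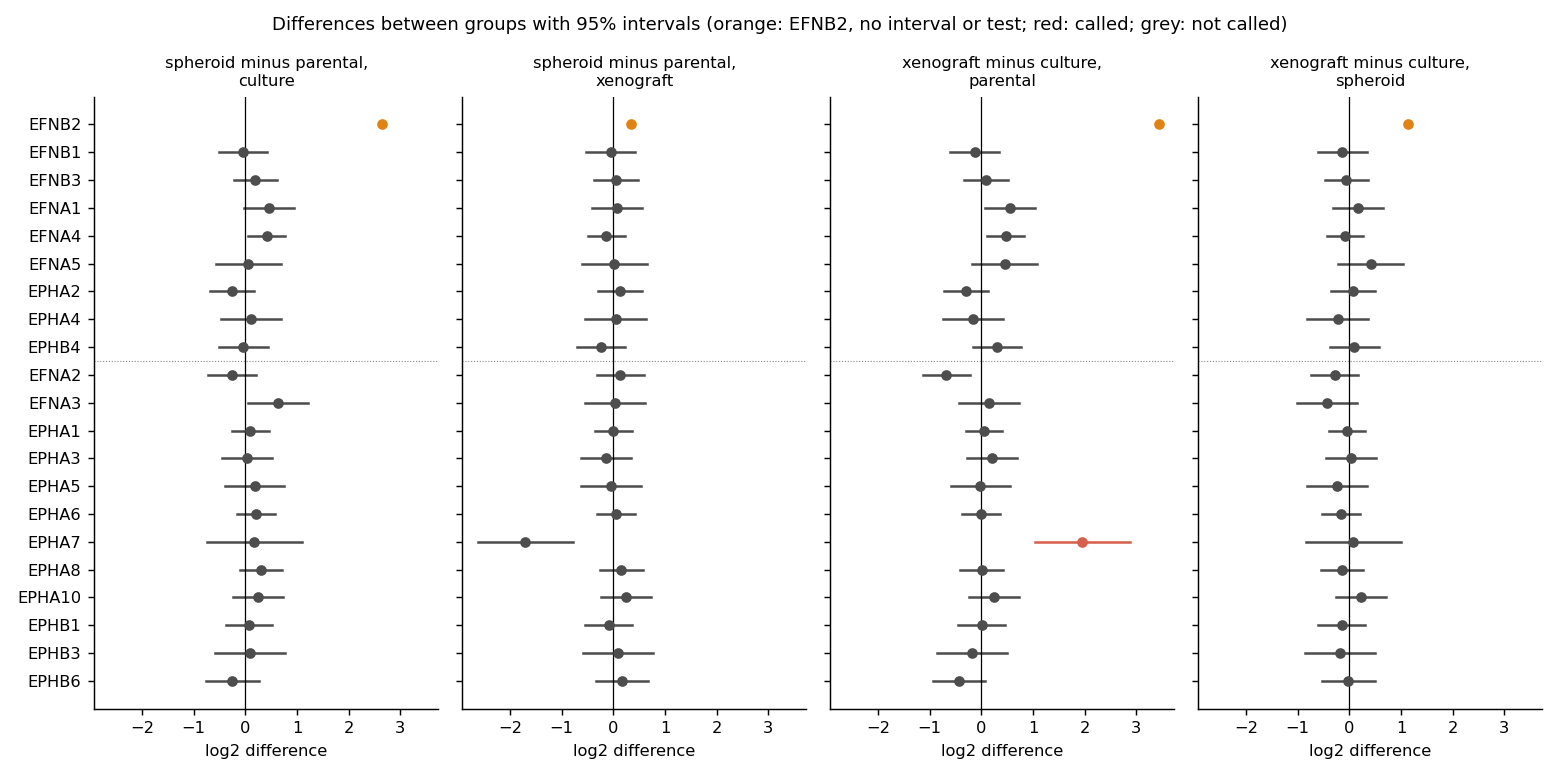
Log2 differences of the 21 measured genes of the family in the 4 comparisons of groups, with 95% intervals for all but EFNB2, which is drawn as points alone. The intervals come from the SE of the limma fit and 8 residual degrees of freedom, so they are wider than limma's own test implies. The dotted line parts the members from the other genes. EFNB2 is 2.64 higher in spheroid than in parental culture and 3.43 higher in parental xenografts than in parental culture (not tested), and EPHA7, 1.95 higher in parental xenografts, is the 1 gene called.

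The remaining 12 genes of the family were all measured, and 1 was called. EPHA7, an A receptor known from the developing nervous system, read 6.47, 6.30 and 5.73 in parental culture and 6.44, 6.34 and 6.23 in spheroid culture. It read 7.82, 9.21 and 7.31 in parental xenografts and 6.29, 6.04 and 6.91 in spheroid xenografts, so the parental xenografts stood above all other samples. From parental culture to parental xenografts it rose by 1.95 (SE 0.40, a fold of 3.86, limma adjusted p = 0.0220). The spheroid xenografts were below the parental ones, and neither this difference (-1.70, adjusted p = 0.139) nor the interaction (-1.87, SE 0.57, adjusted p = 0.338) was called. EPHA7 differed by 0.17 between the cultures and by 0.08 between spheroid xenografts and culture.

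The adjusted p of EPHA7 ran from 5.60e-04 to 0.158 over 25 alternatives, and it was 0.0965 without parental culture replicate 3. With both parental cultures of unusual quality probes left out the difference was 2.38, from the lone parental culture left, replicate 3, which is assumed to vary like the other groups (adjusted p = 0.0557). Probe set 238533_at of EPHA7 was called as well over all probe sets (1.43, SE 0.30, adjusted p = 0.0332), while 206852_at (0.93, adjusted p = 0.288) and 1554629_at (0.22, adjusted p = 0.699) were not. The call on 238533_at was lost in 11 of 22 alternatives, among them those without parental culture replicate 1 (0.0564) or 3 (0.122), spheroid culture replicate 2 (0.0555), parental xenograft replicate 2 (0.0912) or 3 (0.0669) and spheroid xenograft replicate 1 (0.0574).

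EPHA3, a close relative of EPHA7, gave 1 called probe set of 3. Probe set 206070_s_at read 3.97, 4.07 and 4.02 in parental culture and 3.85, 4.02 and 3.97 in spheroid culture, levels below the lower quartile of the arrays. It read 6.35, 6.10 and 4.79 in parental xenografts and 4.04, 3.85 and 4.68 in spheroid xenografts. All parental xenografts were the highest samples, with replicates 1 and 2 far above the rest. It rose by 1.73 from parental culture to parental xenografts (SE 0.34, limma adjusted p = 0.0252 over all probe sets). The probe set that stands for the gene, 206071_s_at, differed by 0.20 (adjusted p = 0.845). The call on 206070_s_at was lost without parental culture replicate 1 (0.0516) or 3 (0.0807) and without parental xenograft replicate 1 (0.0778) or 2 (0.0964). Its adjusted p ran from 0.0017 to 0.314 over 22 alternatives.

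**Figure D4:**
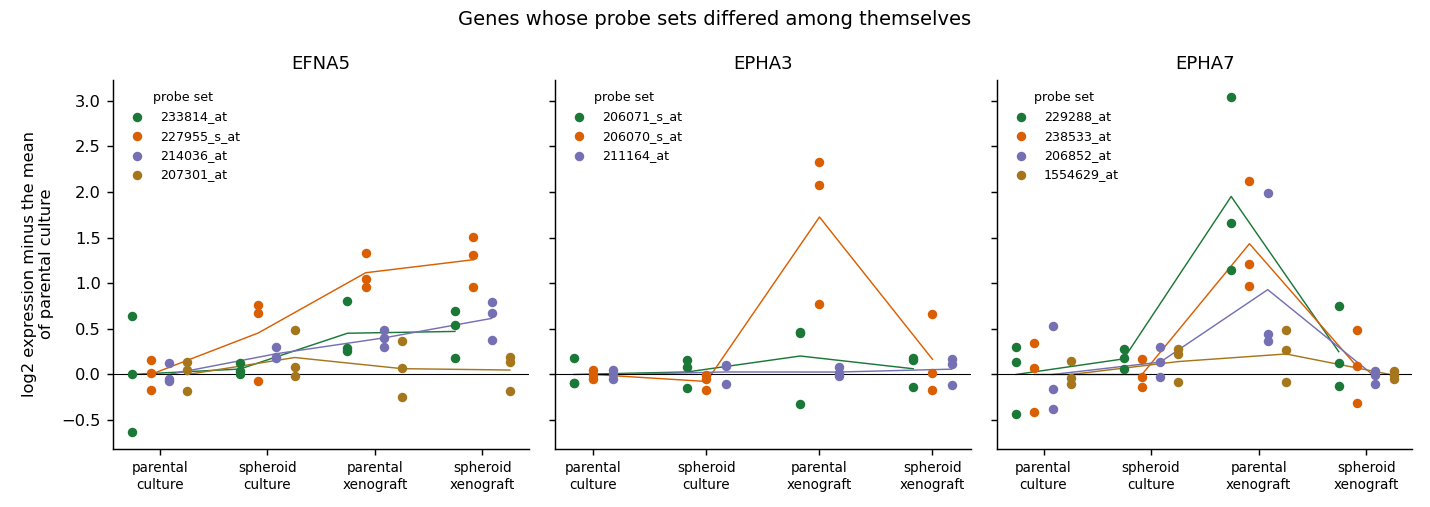
Log2 expression minus the mean of parental culture for each probe set of EFNA5, EPHA3 and EPHA7; points are samples and lines join the group means of a probe set, with no order among the groups. In parental xenografts 206070_s_at of EPHA3 is 1.73 higher and 229288_at of EPHA7 1.95 higher in the mean than in parental culture, while 211164_at of EPHA3 stays within 3.65 to 3.93 on every array.

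Some markers of fibroblasts and pericytes moved in the same group. Of 12 measured, limma called 3 from parental culture to parental xenografts, all higher, against 3.47% of all genes. Of the 12 differences, 10 were positive and 2 negative. The 3 were FAP, a surface protease of activated fibroblasts (2.20, limma adjusted p = 8.50e-04), COL3A1, a fibrillar collagen (2.06, adjusted p = 0.0126), and POSTN, a matrix protein (0.84, adjusted p = 0.0172). FAP held in all 24 alternatives. COL3A1 was not called without parental culture replicate 3 (0.0560) or parental xenograft replicate 2 (0.0595), and POSTN was not called without either of these (0.0561 and 0.0726) or without parental xenograft replicate 1 (0.0587). FAP fell by 1.35 from parental to spheroid xenografts (limma adjusted p = 0.0365), the 1 of 12 called there, against 0.233% of all genes. This call was lost in 9 of 24 alternatives, among them without each spheroid xenograft (0.124 to 0.193), parental xenograft replicate 1 (0.122) or 3 (0.0728), parental culture replicate 3 (0.0657) or spheroid culture replicate 2 (0.0655) or 3 (0.0506). The summed level of the 12 was 68.7 to 72.0 in parental and 71.1 to 72.0 in spheroid culture, and 76.0 to 78.5 in parental and 72.4 to 73.9 in spheroid xenografts. Of the 12, 9 lay at or above the lower quartile on all 12 arrays, cultures included. COL1A1, a fibrillar collagen among these, averaged 8.17 in parental and 8.53 in spheroid culture, and 8.62 in parental and 8.52 in spheroid xenografts. For DCN, a matrix proteoglycan, these means were 6.80, 7.08, 6.96 and 6.99. LUM, another proteoglycan, was the 1 marker below the lower quartile on every parental xenograft array, and LUM and POSTN were in each of the other groups. The part of these cells in the EPHA7, EPHA3 and EFNA5 results was not tested.

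Of 9 measured myeloid markers limma called 0 in any comparison (0 at an unadjusted p under 0.05), against 0.0202% to 3.47% of all genes. Their summed levels were 46.2 to 51.2 over the 12 arrays. Markers of the line itself were checked too. VIM, the intermediate filament of mesenchymal cells, read 13.55 to 14.70, while EPCAM and CDH1, defining epithelial adhesion molecules, lay below the lower quartile on every array. KRT8 and KRT18, simple epithelial keratins, were measured at 6.66 to 9.17 and 10.28 to 13.01. Of the 10 line markers measured, limma called 1 between the cultures, against 2.46% of all genes. In parental cells it called 2, against 3.47%. All calls were lower, while 5 of the 10 differences were positive and 5 negative in each of these comparisons. KRT8 fell by 1.43 from parental to spheroid culture (limma adjusted p = 0.0109). From parental culture to parental xenografts KRT8 fell by 1.77 (adjusted p = 0.0028) and KRT18 by 1.71 (adjusted p = 0.0191). The others of the 10, among them KRT7, KRT19, NKX2-1, SFTPB and NAPSA, were not called in either comparison. The call on KRT8 in culture was lost without spheroid culture replicate 2 (0.0718), and that on KRT18 without parental culture replicate 3 (0.0856) or parental xenograft replicate 2 (0.0811) or 3 (0.0586).

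Of 32 listed genes that carry Eph signals forward, from guanine exchange factors to Src kinases, 29 were measured. Limma called 1 of 29 between the cultures, against 2.46% of all genes, and 1 of 29 in parental cells, against 3.47%, shares near the background. YES1, a kinase of the Src family, rose by 2.10 from parental to spheroid culture (10.47 to 12.57, SE 0.44, limma adjusted p = 0.0288). ROCK2, a kinase that acts on the cytoskeleton, rose by 0.94 from parental culture to parental xenografts (SE 0.20, adjusted p = 0.0243). Both calls lay near the threshold. YES1 was not called without parental culture replicate 1 (0.0560) or 3 (0.107), spheroid culture replicate 2 (0.157) or 3 (0.121) or spheroid xenograft replicate 2 (0.0517). ROCK2 was not called without parental culture replicate 1 (0.0516) or 3 (0.0840) or without parental xenograft replicate 1 (0.0795), 2 (0.0858) or 3 (0.0514). Of the 29, 0 were called lower in any comparison, though 11 had a negative difference in culture and 16 between xenografts. FYN, a Src family kinase picked after its values were seen, had differences of -1.36 in parental cells, -1.74 between xenografts and -1.80 in spheroid cells. The groups did not overlap and none was called (limma adjusted p of 0.155, 0.208 and 0.219). Over all genes 13.6%, 16.5% and 18.7% did not overlap in these comparisons. Between the cultures FYN differed by -1.30, with overlap (adjusted p = 0.193). Limma called 0 of 29 between xenografts, in spheroid cells or in the interaction (4, 6 and 2 at an unadjusted p under 0.05). Between the cultures 10 of the 29 had an unadjusted p under 0.05, and in parental cells 6. The list's median difference was 0.14 in culture and 0.24 in parental cells, against 0.070 and -0.0091 over all genes.

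Of 23 genes of reverse signalling and ephrin shedding, which include the PDZ partners of B ephrins and the proteases that cut ephrins, 22 were measured. STAT3, a transcription factor, rose by 0.89 from parental culture to parental xenografts (SE 0.17, limma adjusted p = 0.0163) and was the 1 member called in any comparison, 1 of 22 against 3.47% of all genes. It was not called without parental xenograft replicate 2 (0.0759). Between the cultures limma called 0 of the 22 (5 at an unadjusted p under 0.05). In parental cells 8 of the 22, STAT3 included, had an unadjusted p under 0.05. ADAM10 and ADAM17, proteases that shed membrane proteins, were not called in parental cells, with differences of 0.64 (adjusted p = 0.318) and 0.59 (adjusted p = 0.0735). The list's median was 0.23 in culture and 0.22 in parental cells.

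Among 2327 genes with an SD of at least 0.5 over the 12 arrays, those with a course most like that of EFNB2 were VGLL4, a cofactor of TEAD proteins (Pearson r 0.983), MAN1A2, a Golgi mannosidase (0.979), SPHK1 (0.967), STAU2, an RNA-binding protein (0.966), and ANKRD37 (0.965). SPHK1, a kinase that makes a signalling lipid, had group means of 6.78 in parental and 8.08 in spheroid culture, and of 8.78 in parental and 8.54 in spheroid xenografts. For ANKRD37, a protein with ankyrin repeats, these were 5.60, 7.73, 9.20 and 8.78 in that order. The genes with the most opposite course were OXCT1, an enzyme of ketone body use (-0.963), NECTIN2, an adhesion molecule (-0.956), and RBP7, a retinol-binding protein (-0.936). OXCT1 had means of 8.96, 7.27, 6.44 and 6.37 in the same order. These 12 points share the group means and the arrays, so the values of r describe likeness over 4 groups and carry no test. Within the list the r with EFNB2 was 0.68 for EFNA1, 0.66 for EFNA4, 0.53 for EFNA5, 0.20 for its receptor EPHB4 and 0.068 for EFNB3, and -0.20 for EPHA2, -0.40 for EPHA4 and -0.41 for EFNB1.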

How the data were processed

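RNA of 12 samples was read on Affymetrix HG-U133 Plus 2.0 arrays after 2 µg of total RNA was labelled with biotin, per the labels' protocols. The deposited values are log2 expression, made by the authors with RMA and the package affy, per the submitters' processing notes. The sources used here give no versions, no batches and no word on joint normalisation. Of 54675 probe sets, 41097 carried 1 symbol, 1801 several and 11777 none in the platform annotation, and symbols were updated by gene number for 41043 (GRCh38.p14 gene table). For each gene the probe set of highest mean was taken, without a filter. The 62 control probe sets were left out.

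In R 4.3.3, limma 3.58.1 fitted 1 mean per group to all 12 arrays (8 residual degrees of freedom), with eBayes and two-sided tests. Calls needed a p under 0.05 after Benjamini-Hochberg adjustment, over 19775 genes or 54613 probe sets. The SE is that of the fit. The fits were run on simulated data with known changes, drawn with 1 spread per gene for all 4 groups. The real parental cultures varied more than the other groups, so the simulation does not bear on calls that use them. With 3 samples against 3 an exact permutation test gives at best p = 0.1. Precision is limited by the number of arrays. The rule named all members, every called gene of the rest of the family, up to 4 called genes per pathway list and comparison, and 5 genes most like and 3 most unlike EFNB2 (symbols with orf in them, a start of LOC, FAM or KIAA, or an end of -AS1 or -IT1 were left out). EPHA3, EFNA2 and EFNA3 were singled out after their values were seen, as were the uncalled pathway genes and the markers named. Members and lists were chosen with earlier results of these data known.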

Additional observations from a re-analysis of the deposited data

How the results depend on the processing

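There were 25 alternatives for the genes, 12 of which left out 1 array. EFNB2, whose direction the choice of the list fixes, read 2.25 to 3.28 between the cultures, 3.19 to 3.92 in parental cells and 0.49 to 1.51 in spheroid cells, the last lowest without spheroid culture replicate 1. Of the 979 values of the other members under alternatives, 83 changed sign, spread over 25 of 40 differences that were not called. Only 2 of these 40 passed the test anywhere, both with array weights. EFNA1 (limma adjusted p = 0.0231) and EFNA5 (0.0467) then joined EPHA7 in parental cells, making 3 family genes. EPHA7 was then the 1 family gene called between xenografts and in the interaction. Array weights also called far more of all genes, by the counts given below. The count in parental cells, 1, became 0 with only the arrays of the groups compared, with these and a replicate block, and without both parental culture replicates 1 and 2 (the lone culture left is assumed to vary like the other groups), and was 0 to 2 when single arrays were left out (0 without parental culture replicate 3; EFNA2 joined EPHA7 without spheroid culture replicate 1). For EPHA7 the adjusted p was 0.158 with only the compared arrays and 0.0993 with these and the block.

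The 1 member probe set called in parental cells became 0 after median centring, with only the compared arrays, with these and the block, and without both parental culture replicates 1 and 2, and was 0 to 1 with single arrays left out. In spheroid cells 1 (227955_s_at) was called with the block and only the compared arrays. The cause was not tested. Of the markers, COL3A1 in parental cells read -0.015 (adjusted p = 0.997) once the _x_at and _s_at probe sets were left out and another stood for it, and POSTN read 0.22 (adjusted p = 0.428) as the mean of its probe sets. With only the compared arrays YES1, ROCK2 and STAT3 had adjusted p of 0.165, 0.156 and 0.132. On all genes the choices weighed more: 487 were called between the cultures, against 15 with only the culture arrays, 1098 after quantile normalisation and 2095 with array weights, and 687 in parental cells, against 69, 1177 and 2343. Median centring and array weights gave 20 and 1206 genes between xenografts (46 otherwise), 3 and 915 in spheroid cells (4) and 8 and 896 in the interaction (27). The family calls made with array weights are read against these larger counts. Of 19775 genes they were 2343 in parental cells, 1206 between xenografts and 896 in the interaction. Deviations of samples with replicate number 1 correlated weakly and positively in all pairs (0.080 to 0.34), those of numbers 2 and 3 in both directions (-0.45 to 0.33 and -0.56 to 0.48), so the numbers were not taken as pairing. The replicate block on all arrays left 1 family gene called in parental cells (EPHA7, adjusted p = 0.0324) and took the count of all genes from 687 to 626. The interaction was not fitted with only the compared arrays, since it uses all 4 groups, and EFNA4 has no value when _s_at probe sets are left out.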

Other observations

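EFNA4, EFNA3 and EFNA1 follow each other among the protein-coding genes of the RefSeq table, and a read-through transcript of EFNA4 and EFNA3 is listed there as well. EFNA3, a further A ephrin, read 7.77, 7.03 and 8.01 in parental culture and 8.22, 8.44 and 8.03 in spheroid culture, so all spheroid cultures lay above all parental ones, though by hundredths at the nearest samples. Its difference was 0.62 (SE 0.25, limma adjusted p = 0.274). EFNA3 read 7.58, 8.17 and 7.51 in parental xenografts and 7.75, 7.96 and 7.68 in spheroid xenografts. Between the cultures, 3 of the 20 family genes other than EFNB2 did not overlap, these 3 neighbours, none of them called. Over all genes 13.8% did not overlap there, a share near that of the family. The neighbours were picked after the values were seen and carry no test.

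EFNA2, an A ephrin at low levels, was read by 3 probe sets that disagreed, with r between them of -0.0094 to 0.76. The one that stood for the gene, 238956_at, had an r of -0.79 with EFNB2 over the 12 arrays. It read 5.80, 5.80 and 5.58 in parental culture and 4.90, 5.38 and 4.86 in parental xenografts, all of them lower (difference -0.68, SE 0.20, limma adjusted p = 0.0956). The same difference was -0.13 for 208256_at and -0.067 for 1553573_s_at, whose groups overlapped.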
